A study of Arabidopsis thaliana with 4 samples.

Results

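The plastid genome of Arabidopsis thaliana is a small circular chromosome that encodes part of the photosynthetic machinery and part of the machinery that expresses it. The deposited tables held 88 plastid-encoded loci, chosen by the prefix ATCG of their locus identifiers, among 27416 gene models. The samples were Col-0 wild-type seedlings aged 4.5 days, 2 kept in red light at 60 µmol m-2 s-1 and 2 kept in darkness. All 4 samples shared a medium with sucrose, 4 days at 4 °C, 12 h of white light and then 4 days of treatment. RNA came from whole seedlings and was selected on oligo(dT) beads, so the values describe the plastid RNA kept by that selection. Each condition had 1 column of reads and 1 of RPKM (reads scaled to coding length and to all reads of the column), with 33521717 reads in red light and 41106535 reads in darkness. With a single column per condition there was no replicate error and no p-value. The exact 95% intervals in parentheses describe counting error alone.

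Plastid genes descend from a cyanobacterial genome and are mostly transcribed in clusters that are later cut and edited into mature RNAs. A bacterial-type RNA polymerase, whose core subunits are encoded in the plastid, needs nuclear-encoded sigma factors to find its promoters, and a phage-type polymerase of nuclear origin reads a second set of promoters. Every photosynthetic complex except the light-harvesting antenna mixes plastid-encoded core subunits with nuclear-encoded ones. In plastids, unlike in the cytosol, an added poly(A) tail marks RNA for breakdown.

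The files gave no gene names, so loci were paired with the RefSeq plastid annotation of TAIR10.1 by coding length. Of 88 loci, 57 had a length held by 1 gene alone, and these 57 stood in the same order as their genes on the chromosome (56 of 56 neighbouring pairs). A further 13 shared their length with an unrelated gene and were named by the candidate lying between the same neighbours. The psbA and psbD loci, both of 1062 bases, were told apart in this way. Another 8 were repeat copies, 3 matched the later exons of a gene and 4 shared a stop codon with it but had another in-frame start. In all 85 loci received 78 names. ATCG00065, ATCG00870 and ATCG01270 stayed without a name. Notes on other genes in the annotation describe 6 of these loci, and their descriptions named the same gene for 5 of them. The sixth note calls ATCG00430, here ndhK, a photosystem II protein G.

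As examples, 5 short coding sequences picked for their ratios or levels are shown with their start and stop codons in capitals. They do not stand for short genes at large. Over 78 genes coding length had a Spearman rho of -0.06 with the ratio and -0.13 with RPKM in red light. The sequences are those of RefSeq TAIR10.1, read on the coding strand. The psbZ sequence (Pltd:35751-35939, plus strand) and the petN sequence (Pltd:28089-28178, plus strand) had the largest ratios of red light to darkness. The psaI sequence (Pltd:59247-59360, plus strand) had one of the smallest. The psbM (Pltd:28707-28811, minus strand) and rpl32 (Pltd:113449-113607, plus strand) sequences had the highest RPKM.
psbZ: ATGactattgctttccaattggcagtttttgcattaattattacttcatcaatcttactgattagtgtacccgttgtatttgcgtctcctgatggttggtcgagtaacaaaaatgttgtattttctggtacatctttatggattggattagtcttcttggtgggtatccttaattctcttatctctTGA
petN: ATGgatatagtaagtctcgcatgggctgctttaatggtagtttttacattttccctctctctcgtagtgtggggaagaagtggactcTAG
psaI: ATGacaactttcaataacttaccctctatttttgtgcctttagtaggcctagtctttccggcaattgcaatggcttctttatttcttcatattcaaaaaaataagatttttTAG
psbM: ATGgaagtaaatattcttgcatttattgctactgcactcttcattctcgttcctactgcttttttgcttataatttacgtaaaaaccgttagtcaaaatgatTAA
rpl32: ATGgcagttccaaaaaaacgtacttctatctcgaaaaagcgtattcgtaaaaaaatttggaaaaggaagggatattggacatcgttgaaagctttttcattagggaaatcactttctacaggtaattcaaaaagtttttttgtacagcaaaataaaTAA

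The comparison asked which plastid transcripts red light changes relative to continued darkness. Most plastid loci had moderately lower values in red light. A minority that included the photosystem II genes psbA, psbD and psbC had higher ones. Plastid loci took 627332 reads in red light and 876171 reads in darkness, or 1.87% (1.87 to 1.88) and 2.13% (2.13 to 2.14) of all reads. The ratio of these shares was 0.878 (0.875 to 0.881). This ratio compares shares of poly(A)-selected reads. It also moves with the nuclear reads and with the tailed part of plastid RNA, and need not follow the amount of plastid RNA. In whole seedlings, these, fewer plastids or green cells and less RNA per plastid cannot be told apart.

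No plastid locus differed 2-fold. To be called, a locus needed at least 10 RPKM in the higher condition and a log2 change of at least 1 after 1 was added to both RPKM values. Of the 86 plastid loci that reached 10 RPKM, 0 were called higher and 0 lower, beside 8.69% called higher and 5.35% called lower among the 12625 genes of that level. The 2 loci below that level were the copies of ycf2, at 9.05 and 8.94 RPKM in red light, against 8.19 and 8.24 RPKM in darkness. The log2 changes of the 88 loci ran between -0.74 for psaA and 0.84 for petN, whereas the nuclear genes of at least 10 RPKM ran between -6.36 and 6.25. At a 1.5-fold threshold, petN and psbZ were higher (background 15.1%), and psaA, psaB, psaI, ycf4 and 1 copy of ndhB were lower (background 15.3%). Copies of a repeated gene share their reads, and the summed copies of ndhB, with a ratio of 0.674, did not reach 1.5-fold.

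Of the 86 loci, 71 had a lower value in red light (82.6%), beside 58.8% of all genes of that level, and 15 a higher one, beside 41.2%. With TMM or DESeq2 size factors in place of total reads, 67 had a lower value, and the background share was not recomputed with these factors. The counting interval of the ratio lay below 1 for 64 of the 86 (background 49.0%), above 1 for 12 (background 32.5%) and held 1 for 10. Intervals narrow with depth, and the median level in red light was 212 RPKM for the 86 loci and 27.0 RPKM for the background. The interval shares are therefore not alike in depth. The median log2 change of the 88 loci was -0.27, and that of the 12625 genes was -0.11. Mitochondrion-encoded genes, the other organelle's set, were also lower. Of 122 mitochondrial loci, 14 reached 10 RPKM, none was called, and their median ratio was 0.876. For all mitochondrial reads together the ratio was 0.791 (0.775 to 0.806). Mitochondrial genes took 0.0475% of reads in red light and 0.0601% in darkness.

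**Figure D1:**
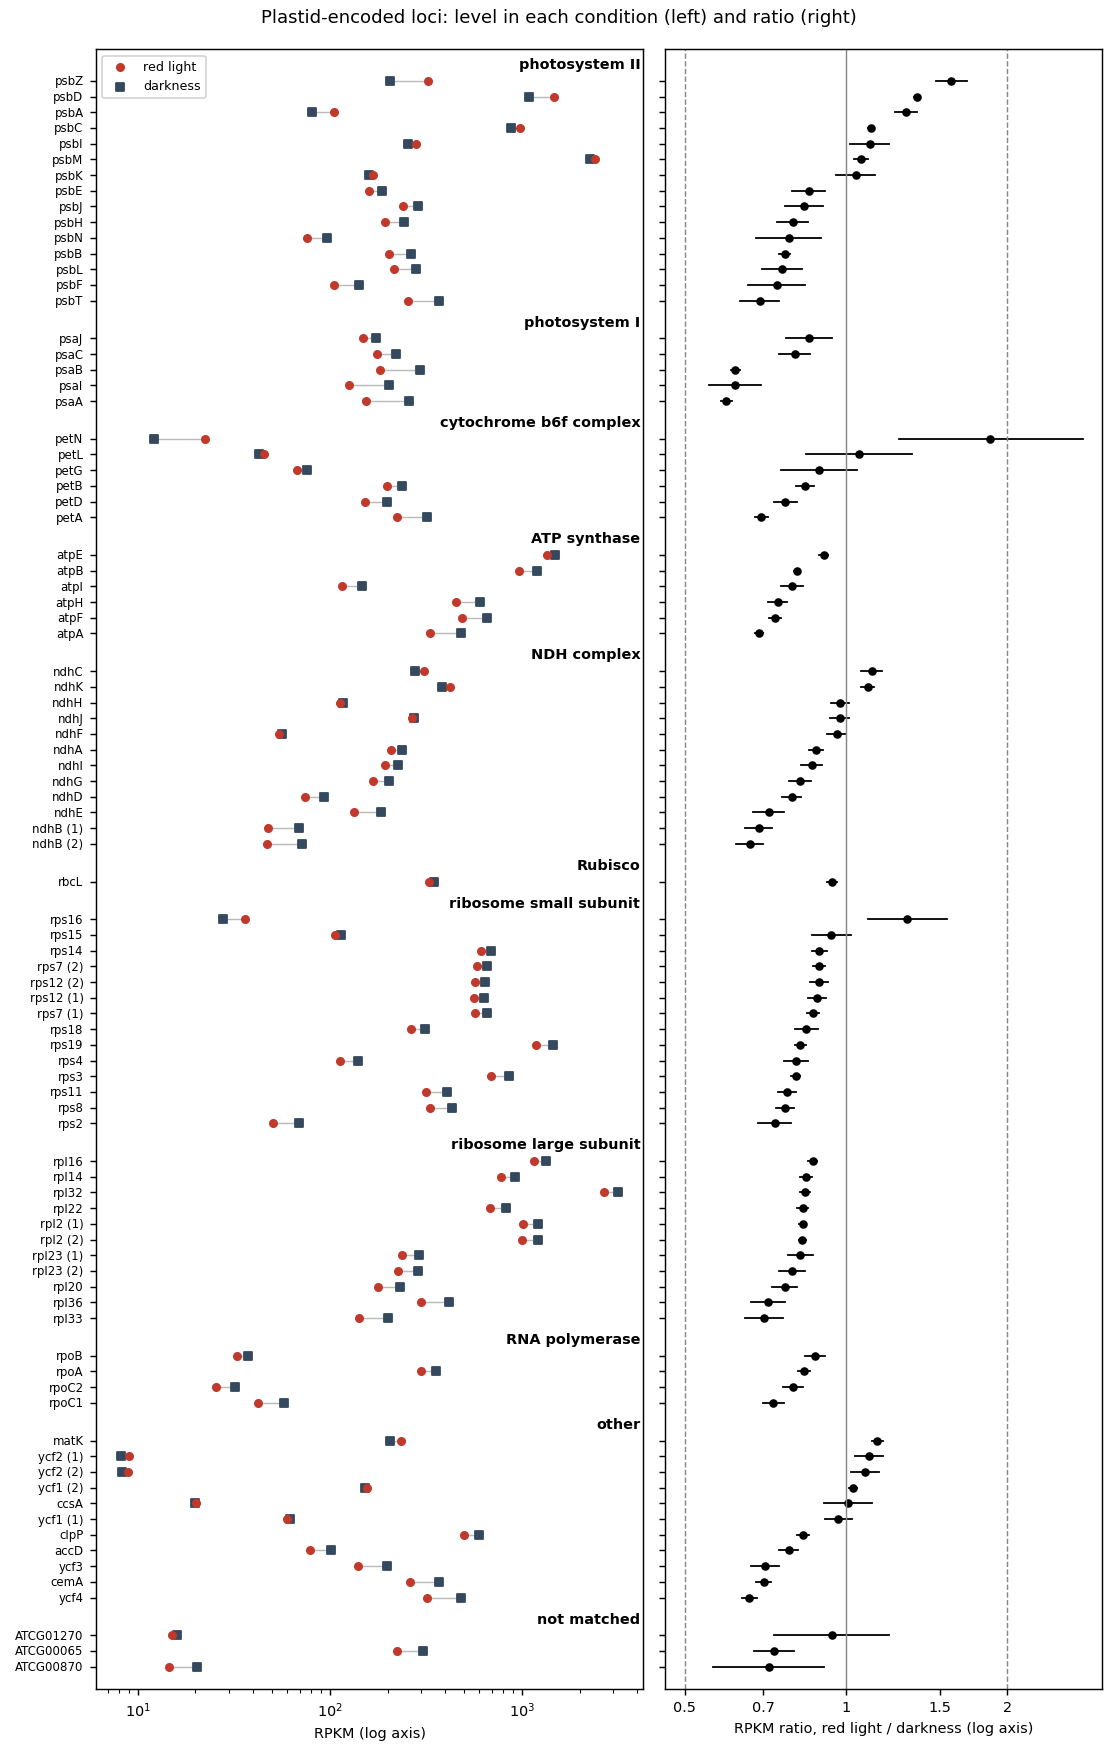
RPKM of each of the 88 plastid loci in red light (circles) and darkness (squares) on a log axis (left), and the ratio of red light to darkness with its exact 95% counting interval on a log axis (right), by functional group. Dashed lines mark 2-fold differences, which no point reaches and the interval of petN alone crosses, and (1) and (2) mark repeat copies. All 5 photosystem I genes lie left of a ratio of 1, whereas 7 of 15 photosystem II genes lie right of it.

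Photosystem II, which splits water, divided into a higher and a lower set of transcripts. Of its 15 genes, 7 had higher and 8 lower values in red light, and the interval excluded 1 for 6 and 8 of them. The psbD gene, which encodes the reaction centre protein D2, had 1479 RPKM (52641 reads) in red light, against 1089 RPKM (47527 reads) in darkness, a ratio of 1.36 (1.34 to 1.38). By RPKM it stood at rank 3 among the 88 loci in red light, against rank 9 in darkness. The psbA gene, for the reaction centre protein D1 that is replaced continually in light, had 105 RPKM in red light, against 81.3 RPKM in darkness, a ratio of 1.29 (1.23 to 1.35). Its level in this poly(A)-selected RNA was low among plastid loci in both conditions, at rank 68 in red light and 71 in darkness. Such ranks describe the RNA kept by that selection and need not follow transcript abundance in the plastid. The psbC gene, for the inner antenna protein CP43, had 983 RPKM in red light, against 884 RPKM in darkness, a ratio of 1.11 (1.10 to 1.13).

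The small subunit gene psbZ showed the largest photosystem II ratio, 1.57 (1.47 to 1.68), with 324 RPKM in red light, against 206 RPKM in darkness. psbM, another small subunit and the plastid locus with the second highest RPKM, had 2420 RPKM in red light, against 2268 RPKM in darkness (ratio 1.07, 1.04 to 1.10). psbI and psbK, small subunits encoded side by side, had ratios of 1.11 (1.02 to 1.20) and 1.04 (0.959 to 1.13). All of the lower photosystem II genes lay in or beside the clusters of psbB and psbE. psbB, for the inner antenna protein CP47, had 204 RPKM in red light, against 266 RPKM in darkness (ratio 0.768, 0.750 to 0.787). The lowest ratio was that of psbT, a small subunit, at 0.690 (0.634 to 0.750). psbN, needed for photosystem II assembly, had a ratio of 0.782 (0.680 to 0.898), but it lies between psbT and psbH on the opposite strand. Its reads are uncertain, since the sources used here do not say whether counting was by strand.

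For photosystem II the summary depended on how genes were weighted. The median log2 change of its 15 genes was -0.23, but 0.26 over the 4 genes of at least 300 bases (psbA, psbB, psbC and psbD), whereas the ratio of their summed reads was 1.14 (1.13 to 1.15). psbD and psbC alone held 99493 of the group's 132604 reads in red light and 99183 of 142948 in darkness. Without them the summed ratio was 0.928 (0.915 to 0.941). Of all plastid reads, psbD and psbC together took 15.9% in red light and 11.3% in darkness.

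The coding sequences of psbD and psbC overlap by 53 bases on the plus strand (Pltd:33720-33772), where a read cannot be given to one gene alone. The overlap is shown with the first codon of psbC in capitals.
psbD-psbC: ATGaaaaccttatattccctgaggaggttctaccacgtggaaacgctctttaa

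Photosystem I, which reduces ferredoxin, had lower values in red light for all 5 of its plastid genes, and all 5 intervals lay below 1. psaA and psaB encode the large proteins of its reaction centre. psaA had 155 RPKM (11728 reads) in red light, against 260 RPKM (24046 reads) in darkness, a ratio of 0.598 (0.585 to 0.611) and the lowest of the 88 loci. psaB had 183 RPKM in red light, against 294 RPKM in darkness, a ratio of 0.621 (0.609 to 0.634). psaI, a small subunit, had 481 reads in red light and 951 reads in darkness, a ratio of 0.620 (0.555 to 0.693). psaC, which carries iron-sulfur clusters, and the small subunit psaJ were closer to 1, at 0.802 (0.750 to 0.857) and 0.852 (0.771 to 0.941). The intervals of psaA and psaB did not overlap those of psaC and psaJ. For all photosystem I reads together the ratio was 0.623 (0.614 to 0.632), and that of photosystem II without psbD and psbC, given above, lay outside this interval. ycf3 and ycf4, which assist photosystem I assembly, had ratios of 0.706 (0.666 to 0.749) and 0.660 (0.639 to 0.681).

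The cytochrome b6f complex passes electrons between the photosystems. Of its 6 plastid genes, 4 had lower and 2 higher values in red light. petA, for cytochrome f, had 223 RPKM in red light, against 321 RPKM in darkness (ratio 0.695, 0.675 to 0.715). petB, for cytochrome b6, had 198 RPKM in red light, against 237 RPKM in darkness (ratio 0.837, 0.805 to 0.870). petN, a very small subunit, had the highest ratio of all plastid loci, 1.85, but it rested on 68 reads in red light and 45 reads in darkness and its interval ran from 1.25 to 2.76. The intervals of petG and petL, other small subunits, held 1.

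ATP synthase genes were all lower in red light, with 6 of 6 intervals below 1. atpB and atpE, for the catalytic beta and the epsilon subunit, had the highest levels of the group. atpB had 968 RPKM in red light, against 1195 RPKM in darkness (ratio 0.810, 0.801 to 0.819). atpE had 1346 RPKM in red light, against 1481 RPKM in darkness (ratio 0.909, 0.892 to 0.927). atpA, for the alpha subunit that pairs with beta in equal number, had 333 RPKM in red light, against 485 RPKM in darkness, a ratio of 0.688 (0.675 to 0.701) and the lowest of the group. The intervals of atpA and atpB did not overlap, so subunits of one ring differed in ratio beyond counting error.

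Rubisco fixes carbon dioxide, and its large subunit rbcL is its only plastid gene. rbcL had 328 RPKM (15851 reads) in red light, against 349 RPKM (20674 reads) in darkness, a ratio of 0.940 (0.921 to 0.960). The share of all plastid reads taken by rbcL was 2.53% in red light and 2.36% in darkness, so its side of 1 depended on the denominator. Of its 31-base words, 21.3% also occur in the mitochondrial genome and 20.5% in the nuclear chromosomes.

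The NDH complex drives cyclic electron flow around photosystem I. Of its 12 loci (11 genes, ndhB in 2 copies), 10 had lower and 2 higher values in red light, but with TMM or DESeq2 size factors ndhF, ndhH and ndhJ also lay above 1. ndhC and ndhK, neighbouring genes, were higher under each of these scalings. ndhC had 311 RPKM in red light, against 278 RPKM in darkness (ratio 1.12, 1.07 to 1.17), and ndhK had a ratio of 1.10 (1.07 to 1.13). ndhF, a membrane subunit, had 54.2 RPKM in red light, against 56.4 RPKM in darkness, and its interval held 1 (0.922 to 1.00). The lowest were the ndhB copies, whose summed reads gave 0.674 (0.647 to 0.701).

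Genes of the plastid ribosome held 30.6% of plastid reads in red light and 32.2% in darkness. All 11 large subunit loci were lower in red light, with ratios between 0.703 for rpl33 and 0.866 for rpl16. Of 14 small subunit loci, 13 were lower, between 0.735 for rps2 and 0.939 for rps15. The exception, rps16, had 291 reads in red light and 274 reads in darkness, a ratio of 1.30 (1.10 to 1.54). rpl32 had the highest RPKM of the plastid loci in the selected RNA, with 2666 RPKM in red light, against 3175 RPKM in darkness (ratio 0.840, 0.822 to 0.858). rps19, rpl16 and rpl14 followed among those of high RPKM, with 1188, 1158 and 776 RPKM in red light, against 1447, 1336 and 923 RPKM in darkness. rpl2 had 2 copies, with 1010 and 1006 RPKM in red light, against 1217 and 1214 RPKM in darkness. rps4 had 114 RPKM in red light, against 141 RPKM in darkness (ratio 0.807, 0.765 to 0.850).

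The plastid-encoded RNA polymerase genes were also lower in red light, all 4 with intervals below 1. rpoA, for the alpha subunit, had 299.8 RPKM in red light, against 359 RPKM in darkness (ratio 0.834, 0.813 to 0.856). The genes of the catalytic subunits rpoB, rpoC1 and rpoC2 had lower values, with 32.8, 42.4 and 25.7 RPKM in red light, against 37.4, 58.0 and 32.2 RPKM in darkness. Their ratios were 0.875 (0.838 to 0.914), 0.732 (0.699 to 0.766) and 0.796 (0.763 to 0.831). The rpoB cluster is known as a target of the phage-type polymerase in flowering plants, as is accD, a subunit gene of the fatty acid enzyme acetyl-CoA carboxylase. accD had 79.3 RPKM in red light, against 101 RPKM in darkness (ratio 0.782, 0.751 to 0.814).

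Among the remaining genes, matK, a maturase that helps to splice plastid introns, had 235 RPKM in red light, against 205 RPKM in darkness (ratio 1.14, 1.12 to 1.17). ycf1 and ycf2 encode the largest plastid proteins, both at the inner envelope membrane. The long ycf1 locus had 156 RPKM in red light, against 152 RPKM in darkness (ratio 1.03, 1.01 to 1.05). The summed copies of ycf2 gave 1.09 (1.05 to 1.14). clpP, a subunit of the stromal Clp protease, had 499 RPKM in red light, against 602 RPKM in darkness (ratio 0.830, 0.809 to 0.851). cemA, an envelope protein, had a ratio of 0.702 (0.680 to 0.725), and ccsA, which attaches haem to cytochromes, had 1.01 (0.910 to 1.12).

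**Figure D2:**
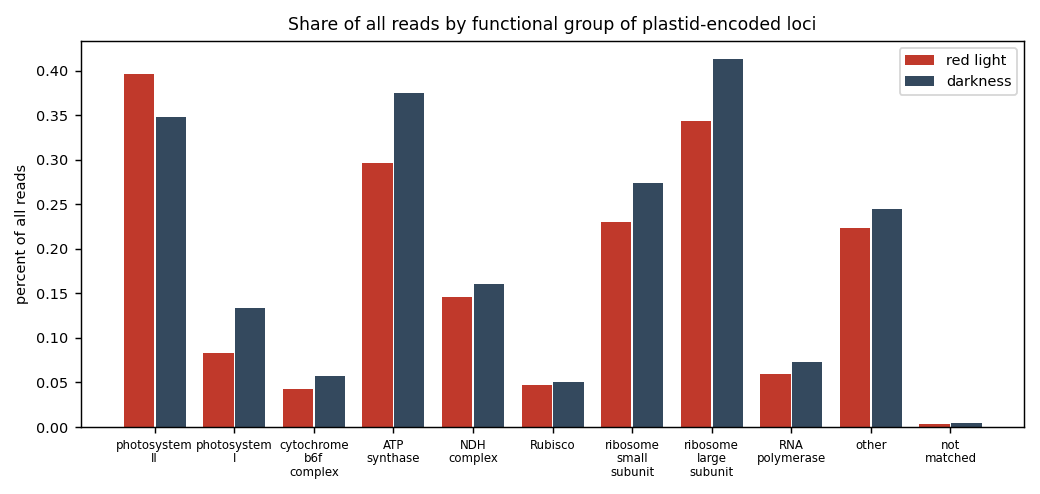
Share of all reads, in percent, taken by each functional group of plastid loci, with red light (left bar) beside darkness (right bar). Photosystem II took 0.396% of reads in red light and 0.348% in darkness, and every other group took a smaller share in red light.

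Many plastid genes are transcribed together with their neighbours. Taking 13 clusters known to be transcribed together, every ratio by total reads was below 1 in 9 clusters, above 1 in 2, and on both sides of 1 in 2. Over all 88 loci, 71 ratios were below 1. With TMM or DESeq2 size factors ndhH and ndhJ lay above 1, so the counts for their clusters depend on the scaling. The median absolute difference in log2 ratio was 0.10 between genes of the same cluster (132 pairs of 57 genes) and 0.22 between genes of different clusters (1464 pairs). These pairs share genes and the 2 columns, so the values are a description only. The clusters were chosen after the ratios were seen, and the cluster of 11 genes gives more of the same-cluster pairs than any other. The cluster of psbD, psbC and psbZ gave a summed ratio of 1.24 (1.22 to 1.25), and that of psbK and psbI gave 1.07 (1.01 to 1.14). The cluster of psaI, ycf4, cemA and petA spans 3 functional groups and ran only between 0.620 and 0.702. The ribosomal cluster between rpl23 and rpoA, of 11 genes, ran between 0.714 and 0.866.

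Some clusters were not uniform. In the cluster of psaA, psaB and rps14, the ribosomal gene rps14 had a ratio of 0.892 (0.863 to 0.921), well apart from psaA and psaB. In the psbD cluster, psbC was lower than psbD and psbZ beyond the counting intervals. In the cluster of rps2 and the atpI, atpH, atpF and atpA genes, all ratios lay between 0.688 and 0.792. atpB and atpE, transcribed elsewhere, lay above that range.

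**Figure D3:**
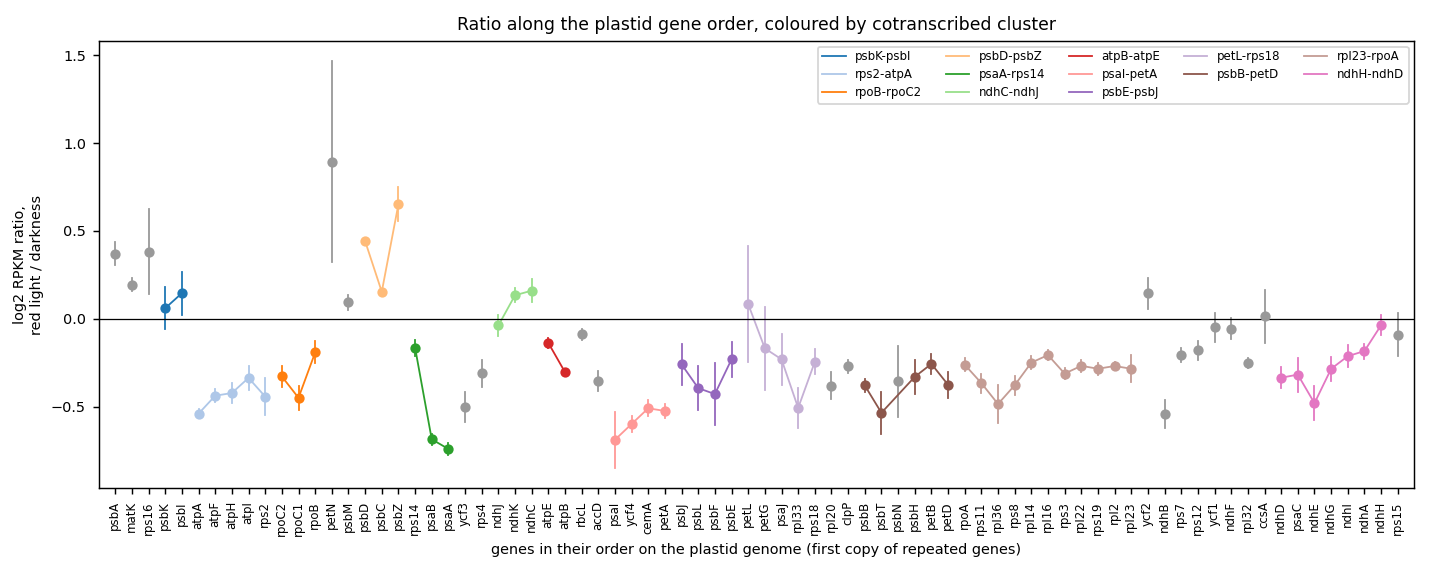
Log2 ratio of RPKM in red light to darkness, without an added count, for 78 plastid genes in their order on the plastid genome, with exact 95% counting intervals. Lines join genes of 13 known clusters and grey points lie outside them. The psbD cluster lies above 0, and the psaA and psaI clusters reach the lowest values.

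The promoter of psbA is the textbook example of a bacterial-type plastid promoter. The elements TTGACA and TANNNT, with 16 to 19 bases between them, were sought in the 250 bases before the coding stretch of each of 85 loci. For the 3 loci matched by later exons this window lay before those exons, not before a start codon. On the gene's strand 3 windows (3.53%) held the pair, those of psbA and both ycf1 loci, and on the other strand none did. The ycf1 windows lie at mirrored places of the inverted repeat, so their hits are a single sequence counted for both loci. Over all windows of 250 bases on both strands of the plastid genome the share was 0.916%. The psbA match (Pltd:1530-1559, minus strand, RefSeq TAIR10.1) is shown as that textbook case, with the elements in capitals. The elements do not overlap each other. Among the 12 loci whose interval lay above 1, psbA and the long ycf1 locus held the pair and the other 10 did not. For a gene inside a cluster the window need not hold its promoter, so a missing pair does not tell the promoter type. The short ycf1 locus, with the same repeated window, had a ratio of 0.966 (0.912 to 1.02).
psbA: TTGACAtggctatataagtcatgtTATACT

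Rank correlations of the ratio with features of the coding sequence were near 0. Over 78 genes the ratio had a Spearman rho of -0.05 with GC content, -0.06 with coding length and 0.01 with the longest run of A. The level in darkness had a rho of -0.10 with the ratio and of 0.98 with the level in red light. These genes share 2 columns and are no independent replicates. GC content of the coding sequences ran between 28.9% and 45.1%, with a median of 37.6%.

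In this poly(A)-selected RNA, plastid-encoded subunits had smaller log2 changes than many nuclear-encoded subunits of the same complexes. A poly(A) tail marks RNA for breakdown in plastids but not in the cytosol. The values of the plastid and nuclear genes are therefore not like measures of transcript level. Of 5 plastid photosystem I genes 0 were called (median log2 change -0.68), against 9 of 12 nuclear ones, all higher (2.26), beside 8.69% called higher among all genes of at least 10 RPKM. PSAH2, a subunit near the antenna docking site, had 1901 RPKM in red light, against 91.4 RPKM in darkness. Of 15 plastid photosystem II genes 0 were called (median -0.23, or 0.26 without genes under 300 bases), against 7 of 10 nuclear ones, all higher (2.00). PSBO2, of the oxygen-evolving complex, had 670 RPKM in red light, against 75.7 RPKM in darkness. ATPD, the delta subunit of ATP synthase, had 803 RPKM in red light, against 91.1 RPKM in darkness, and 2 of 3 nuclear genes of that complex were called higher. ATPG, not called, had a ratio of 1.35 (1.32 to 1.38). Both nuclear cytochrome b6f genes were called higher, with AT2G26500, annotated as petM, the larger at 1009 RPKM in red light, against 429.9 RPKM in darkness.

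Of 12 plastid NDH loci 0 were called, against 3 of 7 nuclear ones, all higher (background 8.69%). NdhT had 20.2 RPKM in red light, against 1.36 RPKM in darkness. NdhO and NdhS, other nuclear NDH subunits, were not called and had ratios of 0.678 (0.643 to 0.715) and 0.807 (0.770 to 0.846). Of 4 Rubisco small subunit genes 3 were called higher, led by RBCS1B with 3099 RPKM in red light, against 771 RPKM in darkness. RBCS1A, not called, had the most reads of them and a ratio of 1.09 (1.08 to 1.10). The ratio of rbcL was 0.940, against 1.60 (1.59 to 1.61) for the reads of the small subunit genes together. These small subunit genes share coding sequence, so the split of reads among them is uncertain. No member of these 6 nuclear lists was called lower (background 5.35%). These lists and the plastid groups come from the same 2 columns, and the difference between them was not tested.

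Sigma factors, which direct the bacterial-type polymerase, had 3 of 6 genes called higher (background 8.69%) and 6 of 6 values higher in red light (background 41.2%). SIG5, known to act at the light-responsive psbD promoter, had 73.5 RPKM in red light, against 3.02 RPKM in darkness, a ratio of 24.3 (21.1 to 28.3). The phage-type polymerase gene SCA3 had 7.17 RPKM in red light, against 6.11 RPKM in darkness, too low to be called. AT5G15700, annotated only as a polymerase superfamily protein, had 2.11 RPKM in red light, against 1.58 RPKM in darkness.

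**Figure D4:**
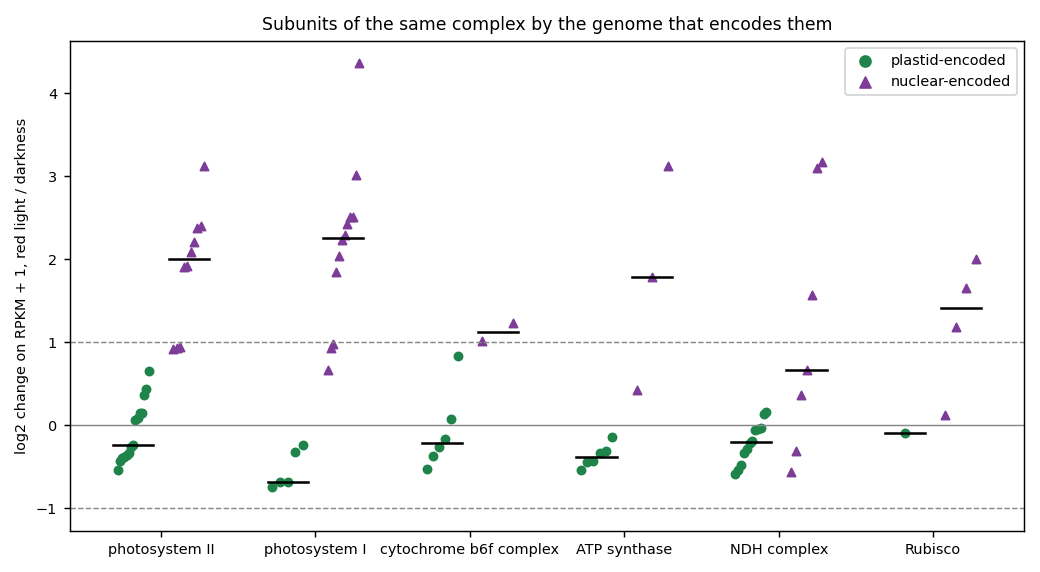
Log2 change on RPKM + 1 between red light and darkness for plastid-encoded (circles, left) and nuclear-encoded (triangles, right) genes of 6 complexes, with each set's median as a bar and 2-fold differences as dashed lines. Plastid-encoded genes lie between the dashed lines, and nuclear-encoded ones reach 4.36. Poly(A) selection does not sample plastid and nuclear RNA alike.

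Repeated genes carry a limit of their own. In the inverted repeat, rpl2, rpl23, ycf2, ndhB, rps7 and the later exons of rps12 occur in 2 identical or nearly identical copies. Reads of the copies differed by at most 1.57 counting SD in red light (rpl23) and at most 1.13 in darkness (ndhB). Their individual values are shares of a sum. The short ycf1 locus had 99.8% of its 31-base words at a second plastid place, so the split of reads between it and the long ycf1 locus is also uncertain. Of 85 loci with a sequence, 49 had no 31-base word in the nuclear chromosomes and 2 had at least 25% of their words there, the short ycf1 locus (46.9%) and rps2 (36.4%). For psbA the share was 15.7% in the nuclear chromosomes and 15.7% in the mitochondrial genome. The sources used here do not say how reads matching several places were assigned, and the part of such reads in these values was not tested.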

How the data were processed

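Poly(A)-selected RNA of 4 seedling samples was sequenced, per the labels' protocols, with TAIR10 as the genome build, per the submitters' processing notes. The sources used here do not name the aligner, the counter or the use of strand. The authors deposited, per the file headers, 1 read column and 1 RPKM column per condition. The reads were taken here as estimated counts, with 0.5 standing for none and set to 0. The authors do not state how the 2 samples of a condition entered its column. Recomputed here, the deposited RPKM values were scaled to the whole reads and to coding lengths, and 3 reads at the median plastid coding length of 472.5 bases equal 0.189 RPKM in red light and 0.154 RPKM in darkness. Ratios compare RPKM, with Clopper-Pearson intervals on the reads. Since reads carried no molecular identifiers, they may repeat a molecule, and intervals and floors cover counting error only. Log2 changes add 1 RPKM and understate the change of low genes.

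Named genes were those of the 10 highest levels, the extremes of each functional group, 20 fixed genes and the largest called nuclear change per list. Others were chosen after their values were seen. The members, groups and lists were chosen with earlier results of these data known. Clusters came from textbook knowledge after the ratios were seen. Scalings used edgeR 4.0.16 (TMM, upper quartile) and DESeq2 1.42.0 size factors in R 4.3.3. Figures were drawn with matplotlib 3.10.9. Intervals came from scipy 1.17.1, and tables were handled with pandas 2.3.3 and numpy 2.4.6 under Python 3.11.15. Simulated data were used to test the calling rule.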

Additional observations from a re-analysis of the deposited data

How the results depend on the processing

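No paired analysis was possible because each condition had 1 column, and no replicate could be left out, so no value here says anything about variation between seedling batches. No plastid locus was called under any alternative scaling, pseudocount, minimum or subset, or at a 4-fold threshold, and at 1.5-fold 2 were higher and 5 lower. The number of loci with a lower value in red light was 71, 67 with TMM or DESeq2 factors (ndhF, ndhH, ndhJ and the short ycf1 locus then lay above 1) and 47 without the 31 loci under 300 bases. The last value is lower because fewer loci were counted. The ratio of plastid read shares was 0.884 without the 13 repeated loci and also 0.884 without atpB.

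Median log2 changes moved beyond the members' median counting interval in the following cases. With TMM factors, which add 0.07, the median over all plastid loci was -0.20, that of ATP synthase -0.31, NDH -0.13, RNA polymerase -0.22, rbcL -0.020, ribosome large subunit -0.20 and small subunit -0.16. With DESeq2 factors (adding 0.06) the same 7 were -0.20, -0.31, -0.13, -0.23, -0.025, -0.21 and -0.16. With plastid reads as the denominator (adding 0.19), photosystem I was -0.50, photosystem II -0.043, cytochrome b6f -0.025, ATP synthase -0.19, NDH -0.011, RNA polymerase -0.11, the large subunit -0.084, the small subunit -0.038, rbcL 0.10 and the other genes 0.14, so the last 2 had a positive sign. The other genes, at -0.049 by total reads, were also positive with TMM (0.020) and DESeq2 (0.015) factors. Without repeated loci, NDH was -0.12, the small subunit -0.30 and the other genes -0.31. Without loci under 300 bases, cytochrome b6f was -0.37, the small subunit -0.31 and photosystem II 0.26, positive because psbA, psbB, psbC and psbD alone remained. No value changed from one side of the 2-fold threshold to the other in these cases.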
